A study of Homo sapiens with 6 samples.

Results

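The genes described here are the 2 transcriptional coactivators of the Hippo pathway, *YAP1* and *WWTR1* (which encodes TAZ), the TEAD factors *TEAD1*, *TEAD2*, *TEAD3* and *TEAD4*, the angiomotin-like genes *AMOTL1* and *AMOTL2*, the kinase gene *LATS2* and the target gene *ANKRD1*. They were chosen by name, and each symbol matched 1 gene identifier, 10 of the 58676 identifiers in the count table. All 10 had at least 10 counts summed over the libraries and were among the 19072 genes tested.

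RNA-Seq was performed on the human lung fibroblast line MRC5 to ask how fibroblasts respond to signals from epithelial cells. Every culture received conditioned medium (CM) for 24 h. The CM came from ATIIER:KRASV12 cells, a human alveolar epithelial type II (ATII) line carrying a RAS protein that is switched on by 4-hydroxytamoxifen (4-OHT). The donor cells had been left as controls for 3 libraries (control ATII CM) and had been given 4-OHT for the other 3 (4-OHT ATII CM). Both groups thus received epithelial CM from cells of the same modified line, and neither is fibroblast medium alone. No library had 4-OHT added to MRC5 cells directly, so 4-OHT carried over in the medium and factors released after RAS activation cannot be told apart. The labels do not say whether the 3 libraries of a group came from separate cultures, and the p values measure the spread between these libraries, which may be technical.

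The Hippo pathway is a kinase cascade that restrains YAP and TAZ. The kinases MST1 and MST2, with the scaffold SAV1, activate LATS1 and LATS2, which phosphorylate YAP and TAZ and keep them out of the nucleus. Where the cascade is quiet, as in spread cells on stiff matrix, YAP and TAZ enter the nucleus and bind TEAD factors, which carry them to DNA. Angiomotins bind YAP in the cytoplasm and at junctions. *ANKRD1*, *CCN1* and *CCN2* are widely used readouts of YAP and TEAD, and *LATS2* and *AMOTL2* are both regulators and targets, which makes a feedback loop. In lung fibroblasts YAP and TAZ are known for their part in activation by stiff, scarred matrix. The amounts of mRNA measured here do not report phosphorylation, localization or DNA binding.

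TEAD factors recognise the letters GGAATG, or CATTCC on the opposite strand. The stretches printed here are the 250 bases before the RefSeq start site (GRCh38.p14) of 3 of the 10 genes, *ANKRD1*, *YAP1* and *AMOTL2*, and of 3 further targets, *CCN2*, *AXL* and *FOXF2*. They are shown because each holds these letters, in capitals, next to a start site of a gene whose level is described here. Each is written 5′ to 3′ on the strand of its gene. The coordinates are chr10:90921088-90921337 (minus strand) for *ANKRD1*, chr11:102110197-102110446 (plus strand) for *YAP1*, chr3:134374448-134374697 (minus strand) for *AMOTL2*, chr6:131951373-131951622 (minus strand) for *CCN2*, chr19:41226505-41226754 (plus strand) for *AXL* and chr6:1389326-1389575 (plus strand) for *FOXF2*. For *AMOTL2* and *AXL* the stretch belongs to the second of 2 listed start sites.
ANKRD1: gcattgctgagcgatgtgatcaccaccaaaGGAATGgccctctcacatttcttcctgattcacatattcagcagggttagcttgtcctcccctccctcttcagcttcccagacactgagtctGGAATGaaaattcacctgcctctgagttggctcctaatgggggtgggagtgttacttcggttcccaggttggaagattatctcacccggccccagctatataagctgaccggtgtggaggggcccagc
YAP1: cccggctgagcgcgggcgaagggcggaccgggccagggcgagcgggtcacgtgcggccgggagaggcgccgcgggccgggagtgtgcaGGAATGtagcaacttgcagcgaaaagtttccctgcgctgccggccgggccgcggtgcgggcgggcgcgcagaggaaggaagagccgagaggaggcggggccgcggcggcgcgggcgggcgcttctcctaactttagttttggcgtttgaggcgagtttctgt
AMOTL2: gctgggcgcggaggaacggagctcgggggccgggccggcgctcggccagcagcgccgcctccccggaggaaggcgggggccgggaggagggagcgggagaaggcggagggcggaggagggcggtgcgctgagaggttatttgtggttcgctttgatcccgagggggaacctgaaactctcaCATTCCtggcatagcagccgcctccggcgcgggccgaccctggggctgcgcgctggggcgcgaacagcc
CCN2: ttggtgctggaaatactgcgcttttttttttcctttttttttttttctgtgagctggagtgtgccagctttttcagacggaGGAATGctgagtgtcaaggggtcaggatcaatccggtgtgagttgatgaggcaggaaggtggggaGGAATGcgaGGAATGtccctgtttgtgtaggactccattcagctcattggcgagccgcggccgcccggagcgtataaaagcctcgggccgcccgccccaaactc
AXL: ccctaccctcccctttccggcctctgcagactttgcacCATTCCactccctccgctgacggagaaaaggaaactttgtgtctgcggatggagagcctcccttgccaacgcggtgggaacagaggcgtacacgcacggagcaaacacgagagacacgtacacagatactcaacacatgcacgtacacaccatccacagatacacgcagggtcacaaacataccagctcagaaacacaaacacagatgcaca
FOXF2: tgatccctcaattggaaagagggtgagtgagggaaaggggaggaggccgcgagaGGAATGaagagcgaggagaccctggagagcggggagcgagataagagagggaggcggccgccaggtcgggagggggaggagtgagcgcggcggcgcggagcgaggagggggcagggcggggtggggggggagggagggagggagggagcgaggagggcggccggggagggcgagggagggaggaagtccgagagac

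Library totals ranged from 17691849 to 26389449 counts, and the square root of the common dispersion, the variation between replicates beyond counting, was 4.36%. Control replicate 2 stood apart from the other libraries on the second principal component, and its deviations fell with gene length (Spearman -0.306), whereas those of control replicates 1 and 3 rose with it (0.285 and 0.148). CPM are counts divided by the normalized library total, times a fixed factor, except that the marker sums used totals without normalization. The fibroblast label was met by its 10 markers. They summed to 41435 to 44392 CPM in control ATII CM and 43101 to 44295 CPM in 4-OHT ATII CM. Within that list 4 genes rose, *DCN*, *LUM*, *PDGFRA* and *COL3A1* (log2 fold changes 0.33, 0.29, 0.22 and 0.18), and *VIM* fell (-0.10), these being named after their values were seen. *VIM* passed in 8 of 14 alternative analyses (adjusted p up to 0.212) and was lost with a replicate block, with no filter on low counts, and without control replicate 3 or any library with 4-OHT ATII CM. Alveolar epithelial markers were low in both groups, and the defining ones were at or near 0. The 16 genes summed to 17.4 to 19.3 CPM and 16.1 to 19.4 CPM, 0 of the 7 tested passed the test, *SFTPC* had 1 count and *CDH1* 4 counts over all libraries, and 4 markers had none. The highest of them, also named after their values were seen, were *KRT19* with 139 to 180 and *MUC1* with 118 to 180 counts per library. Cell cycle genes moved between the groups. Their 12 genes summed to 414 to 447 CPM in control ATII CM and 293 to 327 CPM in 4-OHT ATII CM, and 11 of 12 fell, *MKI67* with a log2 fold change of -0.78 and *TOP2A* with -0.56. The part of these markers in the results described here was not tested.

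Levels were compared as counts with edgeR's quasi-likelihood test, adjusted by the Benjamini-Hochberg method over all 19072 genes tested, and a gene is said to have risen or fallen where its adjusted p was under 0.05. By this rule 2 of the 10 genes rose, *TEAD2* and *WWTR1*, and 0 fell, where 2.95% of all genes tested rose and 2.76% fell. At an unadjusted p under 0.05 the number was 3 of 10, beside 3306 of the 19072 genes tested. The share called in either direction was 5.72% over all genes tested and 10.2% over the 9202 genes with a mean of at least 10 CPM, a level that 9 of the 10 genes reached. The groups did not overlap in 5 of the 10 genes, 3 with higher and 2 with lower levels in 4-OHT ATII CM, against 22.1% of all genes tested without overlap. That share was not computed for genes with a mean of at least 10 CPM, here or for the lists below. The median log2 fold change was 0.017 for the 10 genes and -0.0021 for all genes. In bulk RNA a change in the number of cells of a kind and a change in RNA per cell cannot be told apart.

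**Figure D1:**
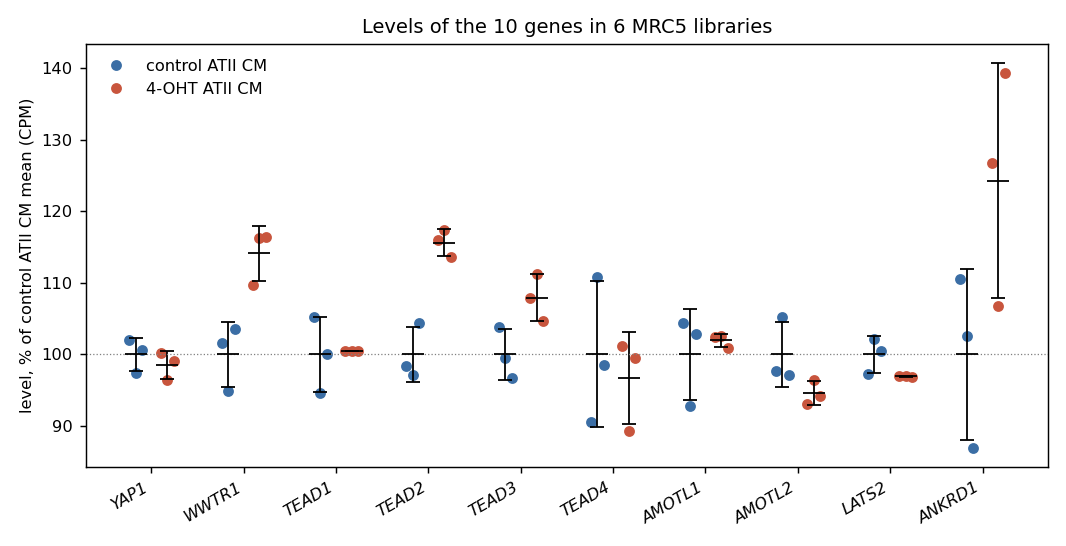
Level of each of the 10 genes in the 6 libraries, as a percentage of that gene's mean CPM in control ATII CM, with 1 point per library, a horizontal bar at the group mean and whiskers of 1 SD (n = 3 per group). The 3 libraries of 4-OHT ATII CM lie above the 3 of control ATII CM for *WWTR1*, *TEAD2* and *TEAD3* (on CPM) and below them for *AMOTL2* and *LATS2*, and *ANKRD1* has the widest spread.

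Levels of different genes can be compared only per length, as TPM, the counts divided by the deposited exon length and scaled to the same total in every library. On that scale *TEAD3* was the most abundant of the 10 genes, with a mean over the 6 libraries of 167 ± 8.41 TPM (SD). It was followed by *AMOTL2* (146 ± 6.26 TPM), *YAP1* (145 ± 4.38 TPM), *TEAD1* (119 ± 4.67 TPM) and *TEAD2* (96.4 ± 7.78 TPM). Lower levels were those of *LATS2* (68.6 ± 1.64 TPM), *WWTR1* (53.4 ± 4.10 TPM), *AMOTL1* (49.3 ± 2.25 TPM) and *TEAD4* (30.5 ± 2.46 TPM). *ANKRD1* was lowest, at 8.32 ± 1.39 TPM. MRC5 cells thus held mRNA of both coactivators and of all 4 TEAD factors in both media. Neighbours in this order were not always distinct. In control ATII CM the ranges of *TEAD3* and *AMOTL2*, of *AMOTL2* and *YAP1*, and of *WWTR1* and *AMOTL1* overlapped. In 4-OHT ATII CM the ranges of *AMOTL2* and *YAP1* alone did so, and the mean of *YAP1* (144 TPM) was above that of *AMOTL2* (142 TPM).

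**Figure D2:**
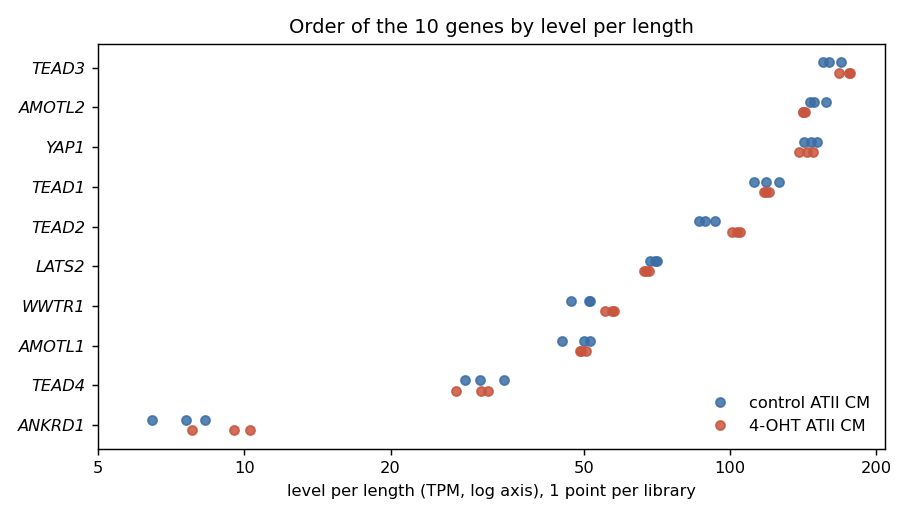
Level per length of the 10 genes in TPM on a log axis, 1 point per library, ordered by the mean over the 6 libraries. The genes span 8.32 TPM (*ANKRD1*) to 167 TPM (*TEAD3*), and the media are separated in *TEAD2* and *WWTR1*, which are higher with 4-OHT ATII CM, and in *AMOTL2* and *LATS2*, which are lower.

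Of the coactivators, *WWTR1* rose while *YAP1* showed no difference beyond the replicate spread. Gene positions are those in the deposited table, on GRCh38. *WWTR1* (chr3:149517235-149736714, minus strand) was measured at 105, 97.8 and 107 CPM in control ATII CM and at 113, 120 and 120 CPM in 4-OHT ATII CM. Every library of the second group was above every library of the first. The level was 14.1% higher (95% interval 7.19 to 21.4%), with a log2 fold change of 0.19 ± 0.042 (SE) and an adjusted p of 0.0129 in edgeR's test. Without 4-OHT replicate 2 or 3 the adjusted p was 0.0773 or 0.0752. An antisense gene, *WWTR1-AS1*, shares 9.45% of the exon bases of *WWTR1* and had 34 counts over all libraries.

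*YAP1* (chr11:102110461-102233423, plus strand) had 230, 220 and 228 CPM in control ATII CM and 226, 218 and 224 CPM in 4-OHT ATII CM. These ranges overlapped, although 2 of the 3 controls lay above every library with 4-OHT ATII CM and 4-OHT replicate 2 lay below every control. The log2 fold change was -0.022 ± 0.034 (SE), an interval of -6.31 to 3.59% around a difference of -1.48%, with an adjusted p of 0.819 in edgeR's test. A test of whether *WWTR1* changed more than *YAP1* is given by their ratio. *WWTR1* made up 25.4, 24.95 and 26.0% of the summed TPM of both coactivators with control ATII CM, whereas with 4-OHT ATII CM it made up 27.2, 29.2 and 28.6%. The groups did not overlap, and the mean share went from 25.4 ± 0.516% to 28.3 ± 1.01% (SD, n = 3). In an exact two-sided permutation test its p was 0.1, the smallest that 3 libraries against 3 can give, and 0.225 after adjustment over the 9 shares and sums compared. The sum itself was 197 ± 6.83 TPM and 201 ± 3.92 TPM (SD, n = 3), and the groups overlapped (exact permutation p = 0.6).

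Among the TEAD factors, which have nearly the same DNA-binding domain, *TEAD2* rose, *TEAD3* lay higher without passing the test, and *TEAD1* and *TEAD4* showed overlapping groups. *TEAD2* (chr19:49340595-49362457, minus strand) was measured at 64.4, 63.6 and 68.3 CPM in control ATII CM and at 75.9, 76.8 and 74.3 CPM in 4-OHT ATII CM. The gap between the groups was wider than the range within either. The level was 15.5% higher (95% interval 8.86 to 22.6%), the log2 fold change was 0.21 ± 0.040 (SE) and the adjusted p of edgeR's test was 0.00513. *TEAD2* passed the threshold in all 14 alternative analyses, with adjusted p between 5.76e-05 and 0.0377. It shares 10.7% of its exon bases with *CD37* on the opposite strand, which had 587 counts over all libraries whereas *TEAD2* had 1136 to 1954 in each, and the strand setting of the counting is not given in the sources used here.

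*TEAD3* (chr6:35473597-35497076, minus strand) had 125, 120 and 117 CPM in control ATII CM and 130, 134 and 126 CPM in 4-OHT ATII CM. On this scale the groups did not overlap, the nearest libraries being 125 and 126 CPM, but in TPM they did, with 169 TPM in control replicate 1 and 168 TPM in 4-OHT replicate 3. The log2 fold change was 0.11 ± 0.040 (SE), and the adjusted p of 0.138 in edgeR's test did not pass. It remained above the threshold in all 14 alternatives (0.0611 to 0.451).

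*TEAD1* (chr11:12674591-12944483, plus strand) was at 315, 284 and 300 CPM in control ATII CM and at 301, 301 and 301 CPM in 4-OHT ATII CM. All libraries with 4-OHT ATII CM lay inside the range of the controls. The log2 fold change was 0.0065 ± 0.038 (SE) with an adjusted p of 0.958, and its interval of -4.97 to 6.18% is narrow. *TEAD4* (chr12:2959330-3040673, plus strand) was the least abundant of the family in TPM. It had 15.7, 19.2 and 17.1 CPM in control ATII CM and 17.5, 15.5 and 17.2 CPM in 4-OHT ATII CM, which overlap (log2 fold change -0.045 ± 0.083 (SE), adjusted p = 0.851 in edgeR's test). For *TEAD1* and *TEAD4* the sign of the difference changed without control replicate 2, and neither has a direction.

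Summed over the family, TEAD mRNA was 413, 393 and 398 TPM in control ATII CM and 433, 425 and 419 TPM in 4-OHT ATII CM. These groups did not overlap, with means of 401 ± 10.6 and 425 ± 7.17 TPM (SD, n = 3), and the exact permutation p was 0.1. The composition was measured as each gene's share of that sum. The share of *TEAD2* was 21.6, 22.1 and 23.4% with control ATII CM, whereas with 4-OHT ATII CM it was 24.2, 24.3 and 24.2%. That of *TEAD1* was 30.6, 28.5 and 29.8% against 27.9, 27.7 and 28.4%. Both shares were separated between the media, the first higher and the second lower (exact permutation p = 0.1 for each, 0.225 after adjustment over 9). *TEAD3* held the largest share, 40.2 ± 1.01% and 40.8 ± 0.737%, and *TEAD4* the smallest, 7.77 ± 0.926% and 7.04 ± 0.526% (SD, n = 3), and both overlapped between the groups (exact permutation p = 0.6 and 0.4). The CPM of *TEAD1*, unlike its share, overlapped between the media. Shares of the same sum depend on each other, so the lower share of *TEAD1* is not a separate result.

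**Figure D3:**
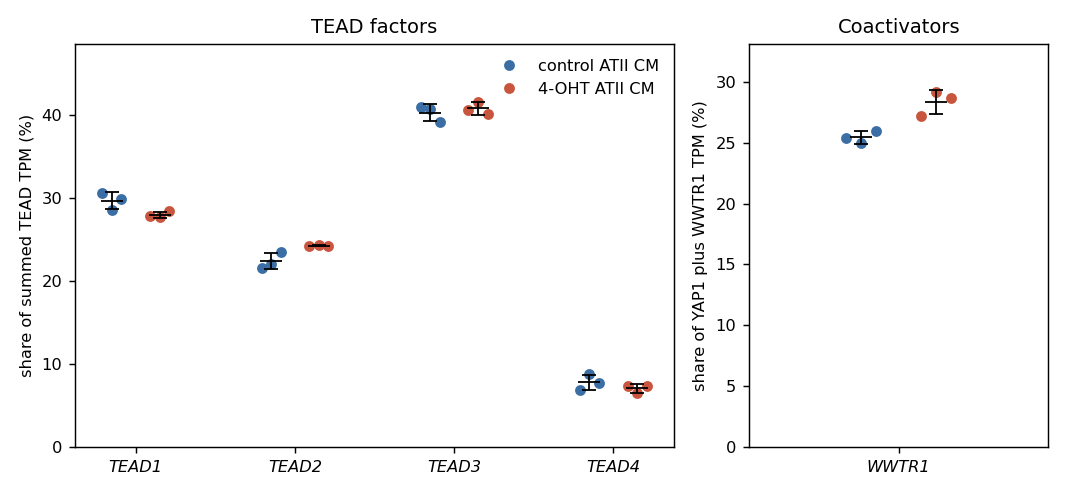
Left, share of each TEAD gene in the summed TPM of the 4 TEAD genes, and right, share of *WWTR1* in the summed TPM of *YAP1* and *WWTR1*, in percent, with 1 point per library, a horizontal bar at the mean and whiskers of 1 SD (n = 3). The mean *TEAD2* share is 22.3 and 24.2% and the mean *WWTR1* share 25.4 and 28.3%, with no overlap between the media, at the smallest permutation p of 0.1.

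The regulators *AMOTL1*, *AMOTL2* and *LATS2* and the target *ANKRD1* did not pass the test. *AMOTL2* (chr3:134355874-134375479, minus strand) had 216, 233 and 215 CPM in control ATII CM and 206, 213 and 208 CPM in 4-OHT ATII CM. All 3 of the latter were lower, the nearest libraries being 213 and 215 CPM. The log2 fold change was -0.080 ± 0.038 (SE), the interval ran from -10.5 to 0.0305%, and the adjusted p was 0.291 in edgeR's test. Without control replicate 2 the log2 fold change was -0.042 (adjusted p = 0.523). *AMOTL1* (chr11:94706431-94876753, plus strand) was at 126, 112 and 124 CPM against 123, 123 and 121 CPM. Its groups overlapped, with a log2 fold change of 0.027 ± 0.044 (SE), an adjusted p of 0.826, and a sign that changed without control replicate 2. *AMOTL2* was the more abundant paralog at 75.5 ± 1.98% and 74.1 ± 0.335% of their summed TPM (SD, n = 3, exact permutation p = 0.2).

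*LATS2* (chr13:20973032-21061547, minus strand) was at 92.75, 97.5 and 95.9 CPM in control ATII CM and at 92.52, 92.57 and 92.39 CPM in 4-OHT ATII CM. The groups were separated, with 92.57 and 92.75 CPM as the nearest libraries. The log2 fold change was -0.044 ± 0.037 (SE), with an adjusted p of 0.608 in edgeR's test, and without control replicate 2 it was -0.028. Against its paralog *LATS1*, *LATS2* held 81.6 ± 1.13% and 82.4 ± 0.325% of the summed TPM (SD, n = 3, exact permutation p = 0.4).

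*ANKRD1* (chr10:90912096-90921276, minus strand), which encodes a nuclear and sarcomeric ankyrin repeat protein, had the fewest reads. It had 85, 66 and 71 counts with control ATII CM, whereas with 4-OHT ATII CM there were 100, 96 and 132. Scaled to depth these were 3.98, 3.69 and 3.13 CPM against 4.57, 3.85 and 5.02 CPM, and the groups overlapped through 4-OHT replicate 2. The log2 fold change was 0.32 ± 0.15 (SE), the 95% interval ran from -0.0141 to 55.3% and the adjusted p was 0.288 in edgeR's test. Counting error alone is 10.4% of the level for a gene of this depth. A difference of the size of that in *TEAD2* was therefore not detectable here.

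Most of the 10 genes spread more widely among the control libraries, and whether this went with the medium was not tested. The coefficient of variation of CPM was larger among the control libraries than among those with 4-OHT ATII CM for 9 of the 10 genes, *ANKRD1* being the exception, with medians of 4.54% and 1.87%. Of the 9202 genes with a mean of at least 10 CPM it was larger among controls for 61.0%, with medians of 4.14% and 3.27%. Control replicate 2 gave the lowest control value of *YAP1*, *WWTR1*, *TEAD1*, *TEAD2* and *AMOTL1* and the highest of *TEAD4*, *AMOTL2* and *LATS2*. *TEAD1* and *LATS2* varied by 0.0506% and 0.0991% among the 3 libraries with 4-OHT ATII CM, where counting alone gives 1.22% and 2.18%, so values this close lie within counting error.

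Further components of the Hippo pathway were followed through a list of 25 genes (kinases, scaffolds, angiomotins, cadherins and LIM proteins, with *AMOTL1*, *AMOTL2* and *LATS2* among them). All 25 were tested, 1 fell and 0 rose. This share of 4.0% stands beside 5.72% of all genes and 10.2% of genes with a mean of at least 10 CPM. Their median log2 fold change was -0.044, and 18 of 25 had a negative sign, beside 9630 of 19072 genes tested. The groups did not overlap in 9, of which 7 were lower, where 22.1% of all genes tested did not overlap. The gene that fell was *LIMD1*, which encodes a LIM protein that binds LATS kinases. It had 64.7, 62.9 and 61.8 CPM in control ATII CM and 56.5, 56.1 and 56.6 CPM in 4-OHT ATII CM, without overlap. Its log2 fold change was -0.16 ± 0.038 (SE) with an adjusted p of 0.0185 in edgeR's test, which became 0.110 when a trend with gene length was removed and lay between 0.0604 and 0.0815 without control replicate 1 or any of the 3 libraries with 4-OHT ATII CM.

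The core kinases and their scaffold did not pass. The log2 fold changes were 0.063 for *STK3* (which encodes MST2), -0.061 for *STK4* (MST1), 0.074 for *SAV1* and -0.12 for *LATS1*, with adjusted p of 0.730, 0.537, 0.362 and 0.252. Over the alternatives these log2 fold changes ranged from 0.017 to 0.10, -0.077 to -0.046, 0.059 to 0.095 and -0.16 to -0.099, and none passed. *NF2*, which encodes merlin, an upstream activator of the pathway, had 71.3, 82.9 and 74.4 CPM against 67.9, 67.4 and 68.4 CPM. It was lower in every library with 4-OHT ATII CM, with a log2 fold change of -0.16 ± 0.049 (SE) and an adjusted p of 0.0642 that ranged from 0.0115 to 0.192 over the alternatives. Without control replicate 2 its log2 fold change was -0.10. Without control replicate 2, in which levels fell with gene length, 7 of the 25 passed, beside 1530 of 18682 genes in all, so that the share of the list was then above that of all genes, and without any 1 of the libraries with 4-OHT ATII CM 0 did. An example, chosen after its values were seen, is *FAT1*, a large cadherin, with 623, 404 and 594 CPM against 406, 458 and 450 CPM (adjusted p = 0.125). Here control replicate 2 lay below all libraries with 4-OHT ATII CM and the other controls above them.

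**Figure D4:**
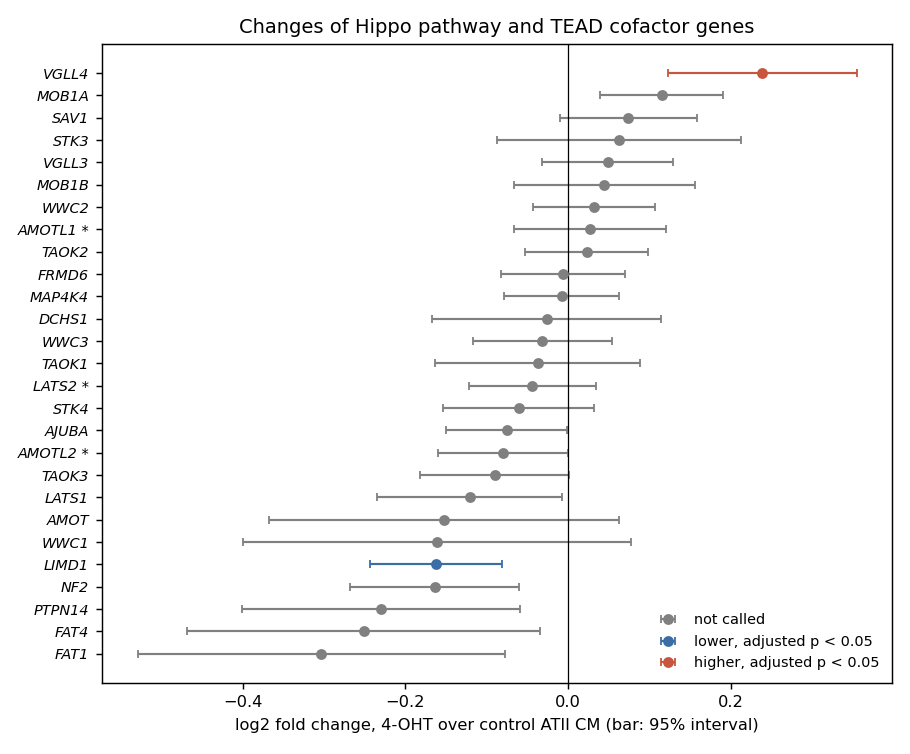
Log2 fold change (4-OHT ATII CM over control ATII CM) of the 25 Hippo pathway genes and 2 TEAD cofactors, with 95% intervals, an asterisk at genes that are among the 10, blue where a gene fell and red where it rose. *VGLL4* alone is red (0.24) and *LIMD1* alone is blue (-0.16), and most of the other intervals include 0.

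The VGLL proteins bind TEAD factors in place of YAP and TAZ. *VGLL1* and *VGLL2* had 0 counts in every library. *VGLL4*, whose product competes with YAP for TEAD, was measured at 36.2, 37.5 and 39.9 CPM in control ATII CM and at 44.8, 47.4 and 42.0 CPM in 4-OHT ATII CM. The groups did not overlap. It rose by 18.0% (95% interval 8.89 to 27.9%), a log2 fold change of 0.24 ± 0.054 (SE) with an adjusted p of 0.0155 in edgeR's test, which was 0.0726 without control replicate 1 and 0.101 without 4-OHT replicate 2. *VGLL4* shares 22.1% of its exon bases with *ATG7* on the opposite strand (3847 counts over all libraries). *VGLL3* had 194, 178 and 180 CPM against 189, 193 and 189 CPM, which overlap (log2 fold change 0.049, adjusted p = 0.578).

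A list of 22 genes known as YAP and TEAD targets, 3 of which (*ANKRD1*, *AMOTL2* and *LATS2*) are among the 10, was followed in the same way. All 22 were tested, 8 fell and 1 rose, together 40.9% against 5.72% of all genes and 10.2% of genes with a mean of at least 10 CPM, a level reached by every target but *ANKRD1*. Of the 22, 16 had a negative sign, beside 9630 of 19072 genes tested, and the median log2 fold change was -0.14. The groups did not overlap in 13, of which 12 were lower (22.1% of all genes tested, of any level, did not overlap). With the 3 shared genes left out, 9 of 19 passed and the median was -0.15. The list was written with earlier results of these data known, so its count is a description. Without 4-OHT replicate 1 the median of the 22 was -0.083, and the number called was between 6 and 12 as single libraries were left out.

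Of the targets that passed, *NT5E* had the largest difference. It encodes CD73, the ectoenzyme that makes adenosine from AMP, and it had 284, 296 and 277 CPM in control ATII CM and 228, 198 and 214 CPM in 4-OHT ATII CM. It fell by 0.42 ± 0.045 (SE) on the log2 scale, 25.3% lower than in controls, and the adjusted p was 4.68e-05 in edgeR's test. *MYOF*, encoding the membrane repair protein myoferlin, had 405, 355 and 397 CPM against 314, 300 and 307 CPM (log2 fold change -0.33 ± 0.043 (SE), adjusted p = 0.000267). *FJX1*, a four-jointed homolog, had 33.4, 34.9 and 31.2 CPM against 27.8, 26.3 and 26.3 CPM (log2 fold change -0.31 ± 0.057 (SE), adjusted p = 0.00389). In these genes the libraries with 4-OHT ATII CM lay well clear of the controls.

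Smaller decreases were seen in *ASAP1*, a GTPase-activating protein of Arf proteins (log2 fold change -0.23, adjusted p = 0.00643), and in *CRIM1*, a transmembrane protein that binds bone morphogenetic proteins (-0.17, 0.00455). *AXL*, a receptor tyrosine kinase, fell from 440, 447 and 439 CPM to 408, 393 and 393 CPM (log2 fold change -0.15, adjusted p = 0.00758). *GADD45A*, a stress response gene, fell by 0.15 on the log2 scale (adjusted p = 0.0377). *NT5E*, *MYOF*, *FJX1*, *ASAP1* and *CRIM1* passed in all 14 alternatives, whereas *AXL* was lost without 4-OHT replicate 2 or 3 and *GADD45A* without control replicate 1 or any library with 4-OHT ATII CM.

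The matricellular genes *CCN1* (CYR61) and *CCN2* (CTGF) are the most used readouts of YAP and TEAD. *CCN1* was at 902, 916 and 914 CPM in control ATII CM and at 727, 872 and 820 CPM in 4-OHT ATII CM. The controls were close together and all above the other group. *CCN1* fell by 0.18 ± 0.047 (SE) on the log2 scale, with an adjusted p of 0.0400 in edgeR's test that reached 0.146 at most over the alternatives and passed in 10 of 14, being lost without control replicate 1 or 3 or 4-OHT replicate 1 or 3. Its log2 fold change was -0.10 without 4-OHT replicate 1 and -0.24 without 4-OHT replicate 2. *CCN2* was at 827, 784 and 821 CPM against 665, 814 and 745 CPM. Its groups overlapped through 4-OHT replicate 2, and its log2 fold change of -0.13 ± 0.052 (SE) did not pass (adjusted p = 0.195). Without that library it was -0.20 (adjusted p = 0.0276) and without 4-OHT replicate 1 it was -0.053 (adjusted p = 0.608). *ANKRD1* had a positive sign, opposite to both.

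*FOXF2*, a forkhead factor of mesenchymal cells, was the 1 target that rose. It had 158, 166 and 171 CPM in control ATII CM and 191, 192 and 181 CPM in 4-OHT ATII CM, with no overlap (log2 fold change 0.19 ± 0.039 (SE), adjusted p = 0.00832). Without 4-OHT replicate 2 the adjusted p was 0.0646.

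**Figure D5:**
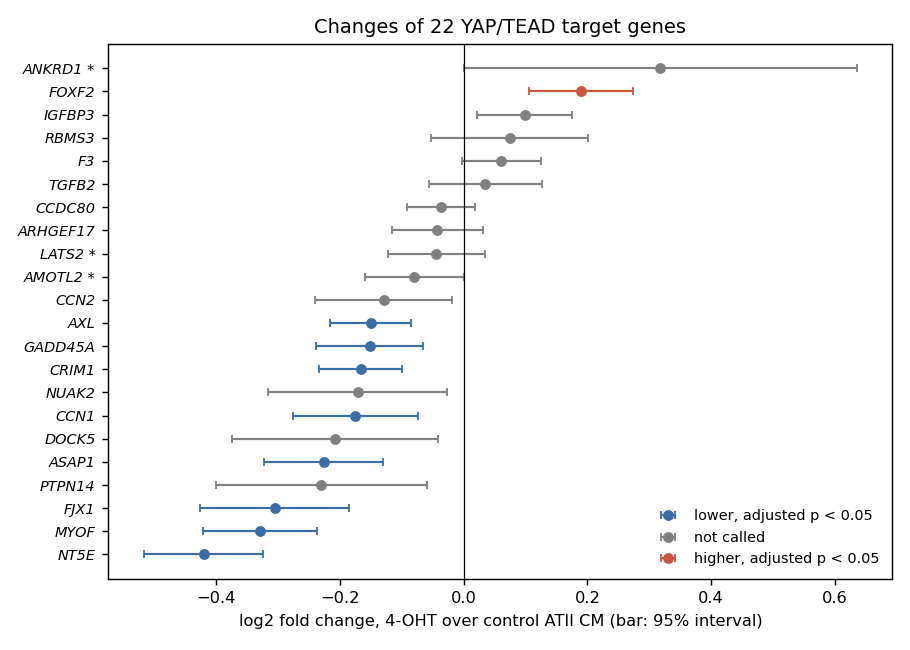
Log2 fold change (4-OHT ATII CM over control ATII CM) of 22 YAP and TEAD target genes with 95% intervals, ordered by value, with an asterisk at the 3 genes that are among the 10. The 8 genes that fell (blue) reach -0.42 in *NT5E*, *FOXF2* (red) is at 0.19, and *ANKRD1* has the highest value and the widest interval (0.32, not called).

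The letters GGAATG (both strands) were searched in windows from 250 bases before to 50 after each RefSeq start site, with position 1 at the start site. They occurred in 14.03% of the 35116 windows and in at least 1 window of 16.73% of the 27305 genes. Of the 10 genes, 8 had windows, 11 in all, and 4 held a match. *ANKRD1* had matches beginning at -220 and -128, *YAP1* at -162, *AMOTL2* at -69 on the opposite strand and *LATS2* at 10. None of the 4 rose or fell, and neither of the 2 genes that rose, *WWTR1* and *TEAD2*, each with 2 windows, had a match, nor did *TEAD3* or *AMOTL1*. *TEAD1* and *TEAD4* had no entry.

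In the target list 16 of 22 genes had windows and 9 held a match (*CCN1*, *ASAP1*, *CRIM1*, *GADD45A*, *DOCK5* and *ARHGEF17* had no entry), a share of 56.25% beside the 16.73% of all genes. *CCN2* held 3, beginning at -169, -104 and -95. Of the 8 genes that fell 4 had windows, and 1 of these held a match (*AXL*, at -212), as did the 1 that rose (*FOXF2*, at -196) and 7 of the 11 with windows that did not pass. A match describes letters and not binding, and enhancers farther away were not searched.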

How the data were processed

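Raw read counts of 6 MRC5 libraries, 3 per group, were analysed. The authors deposited whole-number counts per gene with the length of each gene's merged exons, and per the labels and their processing notes reads were trimmed with Trim Galore, mapped to GRCh38 with HISAT2 2.1.0 and counted with featureCounts 1.6.5. The annotation release, the strand setting and the treatment of multiply mapped reads are not given in the sources used here. Libraries were prepared from polyA RNA with a NEBNext Ultra kit. Groups and replicate numbers were taken from the sample titles.

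Counts of 45 identifiers listed on both X and Y were added, leaving 58676. GENCODE release 44 gave symbols to 16843 of 19072 tested genes. Genes with at least 10 counts over all libraries were tested by the quasi-likelihood test of edgeR 4.0.16 (R 4.3.3) with TMM normalization and group as the only term. The SE of a log2 fold change was its size divided by the square root of F. CPM used TMM-normalized library sizes, except in the marker sums, which used raw library totals. TPM used the deposited exon lengths. Shares of TPM were compared by exact two-sided permutation (scipy 1.17.1). At the mean count over the 6 libraries, counting error was 1.22% to 5.12% for the 9 most highly counted of the 10 genes and 10.4% for *ANKRD1*. These figures cover counting error only.

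Alternatives were DESeq2 1.42.0, limma-voom (limma 3.58.1), other size factors, other filters, removal of a length trend per library, a replicate block, and leaving out each library. Replicate numbers did not pair the libraries, since deviations of same-numbered libraries correlated at -0.014, -0.104 and -0.093 over 9690 genes. Differences between libraries of the same group exceeded sampling noise. The chi-square per degree of freedom was 5.56 and 4.87 for control replicate 2 against control replicates 1 and 3. It was 2.04 between control replicates 1 and 3, and 2.31 to 2.92 between libraries with 4-OHT ATII CM.

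The 10 genes, the Hippo pathway, TEAD cofactor and target lists, the marker lists and the tests were chosen with earlier results of these data known. Genes named were the 10, every called gene of the 3 lists, *LATS1*, *STK3*, *STK4*, *SAV1*, *NF2*, *VGLL3*, *VGLL4*, *CCN1* and *CCN2*, and of the markers *COL1A1*, *EPCAM*, *CDH1*, *SFTPC*, *MKI67* and *TOP2A*. Genes named outside this rule are *FAT1*, *VGLL1*, *VGLL2*, *DOCK5*, *ARHGEF17*, the overlapping genes *WWTR1-AS1*, *CD37* and *ATG7*, and 7 markers whose values were seen first. *COL1A1* had a log2 fold change of -0.092 (adjusted p = 0.0861, passing in 6 of 14 alternatives, with 1.8e-05 without control replicate 2) and *EPCAM* 4 to 14 counts per library. Promoter windows came from RefSeq (GRCh38.p14).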

Additional observations from a re-analysis of the deposited data

How the results depend on the processing

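Over 14 alternatives, 397 of 434 recomputed values of 31 genes named by the rule (*FAT1* is not among them) kept their direction and side of the threshold, 21 lost the call, 12 gained it and 4 changed sign. The number of the 10 genes called was 2, and 1 to 2 as libraries were left out, *WWTR1* being lost without 4-OHT replicate 2 or 3. For Hippo pathway genes the number was 1, against 6 of 25 with no filter on low counts, where 1601 of 27749 genes were called in all. The share of the list was then above that of all genes. The number was 0 to 7 as libraries were left out (0 without any 1 library of 4-OHT ATII CM, 7 without control replicate 2). The cause was not tested. Log2 fold changes changed sign in *TEAD1* (-0.031 to 0.042 as libraries were left out), *TEAD4* (-0.11 to 0.030) and *AMOTL1* (-0.023 to 0.057), none of which was called. For targets the number was 9, and 12 with no filter on low counts, beside the same 1601 of 27749 genes in all. With a replicate block, 2 of the 10 genes, 1 pathway gene and 9 targets were called, and 985 genes in all against 1090, and among the named genes the call of *VIM* alone changed. Removal of the length trend took *LIMD1* to an adjusted p of 0.110 and *NF2* to 0.0435, and the same with the block gave 0.121 and 0.0399. The samples shared only a number, and no sample correlated best with its own. Over all genes DESeq2 called 954 and the range without single libraries was 533 to 1530. Depth limits *ANKRD1* most.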
